A study of Rattus norvegicus with 4 samples.

Results

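Potassium channel subunits, the genes whose symbols start with Kcn, were followed in rat oligodendrocyte precursor cells after their level of the microRNA miR-125a-3p was raised with a transfected mimic. Members were taken by name and detection: a gene entered when 1 of its probes was well above background on at least 2 of the 4 arrays, and its brightest such probe stood for it. The scanner files hold no gene name column, so probes were named through their RefSeq accessions. This gave 130 probes for 91 Kcn genes, of which 55 genes were kept, out of 23155 features tested in all. They were 23 pore-forming subunits of voltage-gated channels, 9 auxiliary subunits of such channels, 7 inward rectifiers, 8 two-pore channels and 8 subunits of the calcium-activated group, which here includes the sodium-activated Kcnt genes.

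The precursors were taken from the cortex of rats at postnatal day 2 and expanded in bFGF and PDGF for 3 days. Lipofectamine RNAiMax then carried 50 nM of RNA into both groups. Strain and genotype are not given in the sources used here. The miR-125a-3p group received the mimic (2 samples) and the miR-neg group received a negative control RNA (2 samples), and each sample was measured on 1 single-colour array 48 h later. The sample labels call the cell type oligodendrocytes, whereas the series' title calls the cells precursors. The 2 samples of each group are described as independent, but whether they were separate animals or separate cultures is not said. The p-values therefore reflect sample-to-sample spread, which may be technical.

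Potassium channels let potassium leave or enter a cell along its gradient and set the resting potential of glia. Voltage-gated channels open on depolarisation, inward rectifiers and two-pore channels carry the resting conductance, and the small and large conductance calcium-activated channels open when calcium rises inside the cell. Precursor cells are known for delayed rectifier and A-type currents that fade as the cells mature, while the inward rectifier of glia, Kcnj10, clears potassium around axons and astrocyte processes.

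The microRNA is shown because its seed, bases 2 to 8 in capitals, is what the treated cells received in excess and the control cells did not. The mature rat sequence, from RefSeq (GRCr8, chr1:67350727-67350748, plus strand), has 22 bases. The arm cut from the other side of the same hairpin, at chr1:67350689-67350712, has another seed. The letters of the mimic itself are not given in the sources used here.
rno-miR-125a-3p: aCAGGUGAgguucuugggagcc
rno-miR-125a-5p: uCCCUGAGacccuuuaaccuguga

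All 8 precursor markers listed, among them Pdgfra, Cspg4, Olig2 and Sox10, were well above background on all 4 arrays. Their summed level, in units of each array's 75th percentile, was 359 to 378 on the 2 miR-125a-3p arrays and 355 to 377 on the miR-neg arrays. Single precursor markers moved in opposite ways, with 5 above 0, 3 below 0 and 0 past the threshold. Pdgfra changed by -0.37 and Neu4 by 0.38, both without overlap. The 8 mature oligodendrocyte markers summed to 493 to 516 on the 2 miR-125a-3p arrays and 762 to 784 on the miR-neg arrays, and all 8 lay below 0 in log2 change, with Aspa past the threshold (-1.55, adjusted p = 0.0411 in limma). The 8 astrocyte markers all lay above 0, 1 of them past the threshold, and summed to 205 to 208 after the mimic and 182 to 194 in the controls. Of 8 microglial markers, 7 were tested, 6 lay above 0 and 1 passed, with a median log2 change of 1.27. Csf1r was well above background on 1 array. The sums were 3.73 to 4.20 after the mimic and 3.25 to 3.58 in the controls. They rest mostly on Cx3cr1 (-0.06) and P2ry12 (0.0013), while Aif1, C1qa, C1qb and Tyrobp changed by 1.27 to 1.56. Of 8 endothelial, pericyte and fibroblast markers, 5 were tested, all 5 lay above 0 and 1 passed, with sums of 0.735 to 0.818 after the mimic and 0.403 to 0.427 in the controls, and Pecam1 was well above background on 0 arrays. Of 8 neuron markers, 7 were tested and 5 lay above 0, and Slc17a7 was well above background on 0 arrays. They summed to 11.8 to 12.6 after the mimic and 11.1 to 12.4 in the controls. Mature oligodendrocyte, astrocyte, microglial, and endothelial, pericyte and fibroblast markers thus moved with the groups in which the channels were compared. Pdgfra and Neu4 did so too, in opposite directions. The part of these markers in the results was not tested. In RNA from a whole culture, fewer cells of a type and less RNA per cell cannot be told apart.

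**Figure D1:**
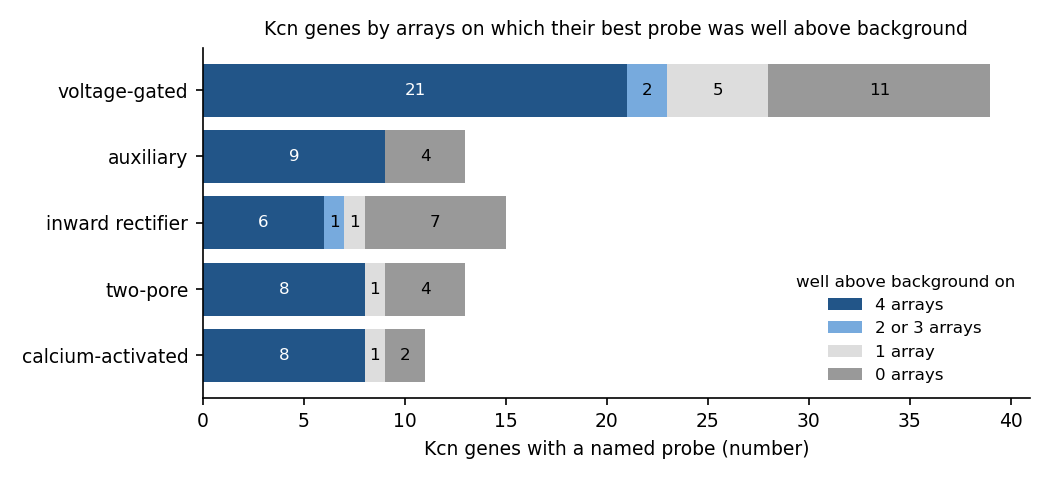
Number of Kcn genes in each family (rows) by the number of arrays on which their best probe was well above background. All 9 kept auxiliary subunits and 21 of 23 kept voltage-gated subunits were well above background on all 4 arrays, while 8 of 15 inward rectifiers were left out.

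The families differed in how many members could be measured. The filter kept 23 of 39 voltage-gated genes, 9 of 13 auxiliary, 7 of 15 inward rectifier, 8 of 13 two-pore and 8 of 11 calcium-activated genes, and 52 of the 55 kept genes were well above background on all 4 arrays. Of the 36 genes left out, 8 had a probe well above background on 1 array and 28 on none. Among these were Kcna5 and Kcna4, subunits of the delayed rectifier and A-type currents described in cultured precursors, the M-current subunit Kcnq5, the strong inward rectifier Kcnj2, and Kcnj16, the usual partner of Kcnj10. The signal of Kcna5 was 11.4 and 5.82 after the mimic and 14.6 and 8.48 on the miR-neg arrays. That of Kcnj2 was 11.9 and 3.98 after the mimic and 12.5 and 4.53 on the miR-neg arrays, and that of Kcnq5 was 10.2 and 6.49 after the mimic and 17.7 and 9.21 in the controls. Kcnj16 had 8.08 and 5.09 after the mimic and 12.7 and 16.8 in the controls. The probes of Kcna5, Kcnj2, Kcnq5 and Kcnj16 were not well above background on any array.

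Just outside the filter, Kcna4 had signals of 11.5 and 11.6 after the mimic and 16.2 and 22.4 in the controls, where 1 array was well above background. Kcng4 had 10.4 and 7.61 after the mimic and 16.7 and 80.7 in the controls, and Kcnh7 had 9.08 and 7.76 after the mimic and 5.16 and 52.0 in the controls. For Kcng4 and Kcnh7 a single miR-neg array, replicate 2, held the high value. Just inside the filter, with 2 arrays each, were Kcnj5 and Kcns1, which passed through both miR-neg arrays, and Kcna7, which passed through both miR-125a-3p arrays. Entry through 1 group favours a higher level there, although the groups of Kcna7 overlapped. The change of these 3 is therefore a description.

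The comparison asks which subunits differ in level when miR-125a-3p is raised. Kcnip3, which encodes a calcium-binding auxiliary subunit of A-type channels that also acts as a transcriptional repressor, rose 1.83-fold after the mimic and was the 1 member of 55 to pass an adjusted p of 0.05 in limma (1.82%, against 0.687% of all features tested). Higher calls were 0.38% of all features and lower calls 0.307%, and 0 members were called lower. The next members by p were Kcnk1 (-0.86 in log2 change), Kcnc4 (0.71), Kcns1 (-0.54) and Kcnn2 (-1.01), and none of these passed. The median change over the 55 members was 0.15 on the log2 scale, against 0.01 over all features. It was 0.04 with normexp background correction and -0.000491 without miR-125a-3p replicate 2.

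Groups did not overlap in 33 of the 55 members (60.0%, against 52.9% of all features), 19 of them higher (34.5%, against 29%) and 14 lower (25.5%, against 23.9%) after the mimic. An unadjusted p under 0.05 was reached by 18 members (32.7%, against 19.6%). Changes over 0.5 in size were seen in 10 members (18.2%, against 9.6%), a count that was 5 with normexp (9.09%, against 2.74%). The change was over 1 in size for 2 members, Kcnj5 and Kcnn2, against 2.01% of all features. Changes lay above 0 in 33 members (60.0%, against 53%) and below 0 in 22 (40.0%, against 47%). Without the 3 members kept through detection in 1 group, 31 of 52 did not overlap (59.6%), 16 had an unadjusted p under 0.05 (30.8%) and 8 changed by over 0.5 in size (15.4%). The shares over all features were not limited in this way. With 2 samples per group an exact permutation test cannot give a p below 0.333.

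**Figure D2:**
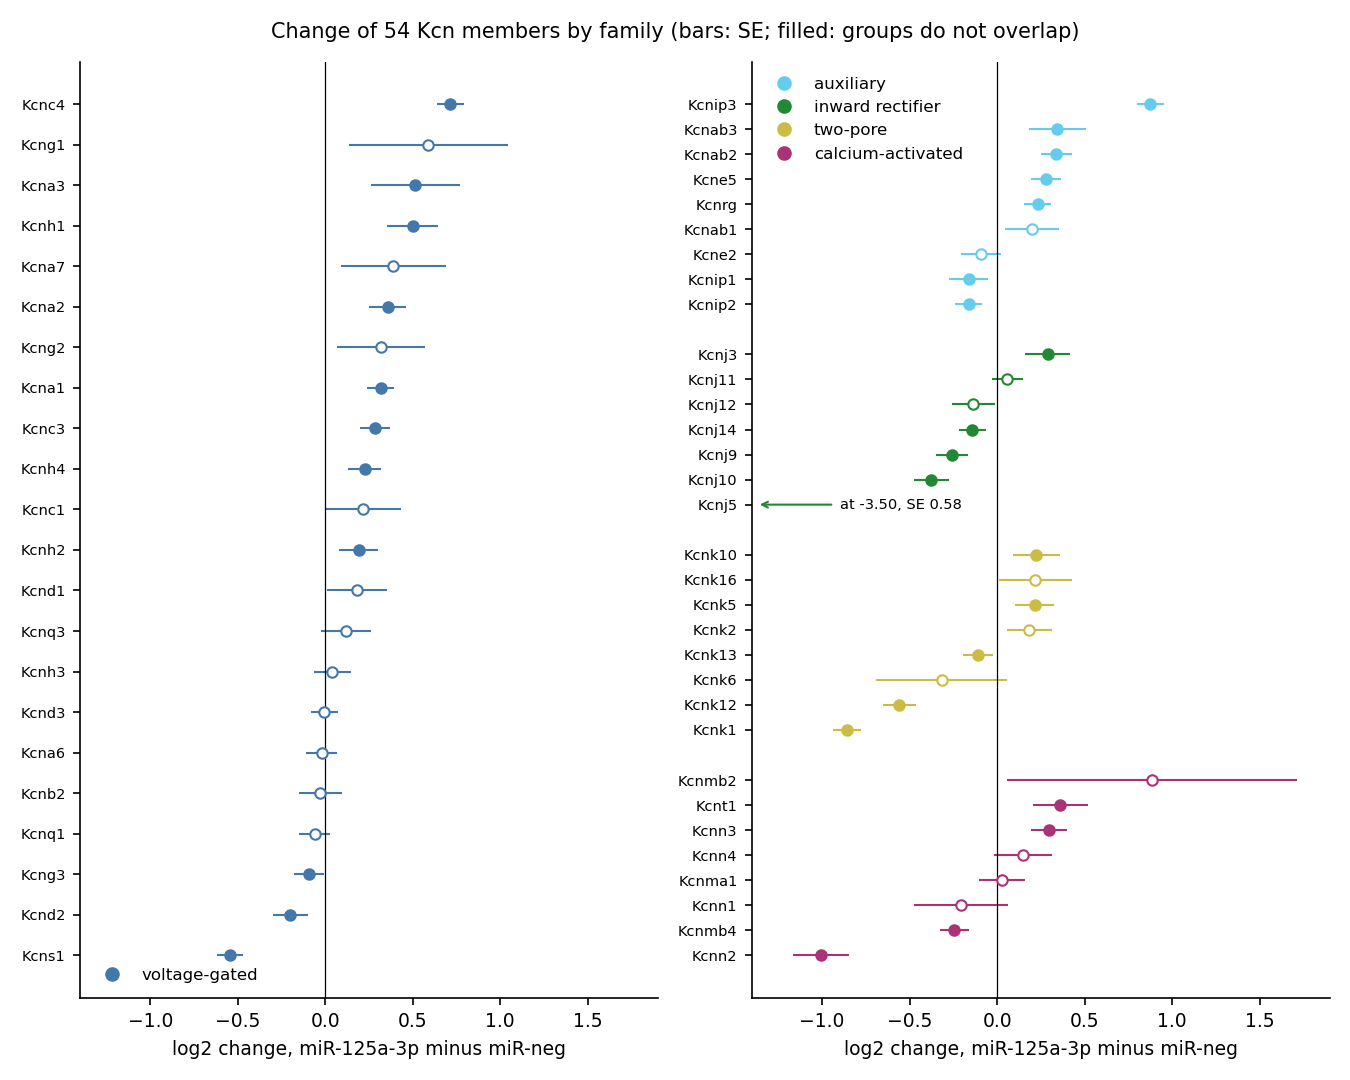
Log2 change, miR-125a-3p minus miR-neg, of 54 of the 55 members (horizontal axis), grouped by family, with the SE from limma as a bar. Filled points mark members whose groups did not overlap. Kcnip3 (0.87) stands at the top of the auxiliary subunits and Kcnn2 (-1.01) at the bottom of the calcium-activated group, and Kcnj5 (-3.50) lies off the axis.

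Voltage-gated pore-forming subunits had 0 of 23 members past the threshold in limma. Of the 21 well above background in both groups, 5 had an unadjusted p under 0.05 (23.8%, against 19.6% of all features). The share over all features was not limited to those detected in both groups. Of the 23, 16 lay above 0, Kcna7 among them, where 53% of all features did. The median was 0.19, both for the 23 and for the 21. The 23 ranged from -0.54, at Kcns1, to 0.71, and the lowest of the 21 was Kcnd2 (-0.20). Kcna7 and Kcns1 were each kept through detection in 1 group. Kcnc4 encodes a fast, inactivating channel subunit. Its signal was 58.9 and 62.2 after the mimic and 38.2 and 35.9 on the miR-neg arrays. Both treated arrays stood above both controls, by 0.71 on the log2 scale (SE 0.08, adjusted p = 0.0583 in limma). The change was 0.21 with normexp, and Kcnc4 passed when the fit was restricted to probes detected on all 4 arrays (adjusted p = 0.0303). Under quantile normalization (adjusted p = 0.0703 in limma) and with slide position as a block (adjusted p = 0.134) it did not pass.

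The Kcna genes encode the shaker-type subunits that oligodendrocyte precursors are known to express. Kcna1 had signals of 3008 and 3038 after the mimic, against 2498 and 2376 in the controls. The 2 treated arrays lay close together and above both controls, by 0.32 (SE 0.08, adjusted p = 0.154). This change kept its size with normexp (0.33, adjusted p = 0.0397) and passed with a variance trend (adjusted p = 0.025). It did not pass in limma under quantile normalization (adjusted p = 0.139) or with slide position as a block (adjusted p = 0.265). Kcna2, its frequent partner, had 572 and 669 after the mimic, against 489 and 482 in the controls, without overlap (0.36, SE 0.11, adjusted p = 0.205), and its second probe, for another transcript accession, changed by 0.17.

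Kcna3, a subunit of proliferating precursors and of microglia, had signals of 52.7 and 33.3 after the mimic, against 30.7 and 28.3 in the controls. Replicate 1 of miR-125a-3p held the high value (0.51, SE 0.25, adjusted p = 0.361), and without it the change was 0.17. The microglial marker sums given above moved the same way, and their part in this difference was not tested. Kcna6 had 586 and 599 after the mimic, against 664 and 548 in the controls, where the miR-neg arrays lay on both sides of the treated ones (-0.02, SE 0.09). Of the 5 kept Kcna genes, 4 lay above 0, Kcna7 among them. The dim Kcna7 had signals of 19.1 and 33.4 after the mimic, against 22.4 and 16.7 in the controls, with overlap. The change was 0.39 (SE 0.30, adjusted p = 0.536), 0.11 with normexp and -0.000491 without miR-125a-3p replicate 2.

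Kcnh1, an ether-a-go-go subunit, had 93.3 and 119 after the mimic, against 73.7 and 75.9 in the controls, without overlap (0.50, SE 0.15, adjusted p = 0.198, and 0.26 with normexp). All 4 kept Kcnh genes lay above 0, at 0.04 to 0.50. Kcns1, a silent subunit that forms channels only together with other subunits, had 13.9 and 14.1 after the mimic, where neither array was well above background, against 21.8 and 19.2 in the controls. The fitted change was -0.54 (SE 0.08, adjusted p = 0.0762) and -0.08 with normexp.

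The A-type current depends on Kcnd pores and their Kcnip partners. Kcnd2 had 1732 and 1597 after the mimic, against 1915 and 1920 in the controls, both treated arrays lower (-0.20, SE 0.10, adjusted p = 0.373), and its second kept probe changed by -0.24. Kcnd3 changed by -0.01 and Kcnd1 by 0.18. The 17 voltage-gated members with an unadjusted p of 0.05 or more, Kcna3, Kcna6, Kcna7 and the Kcnd genes among them, lay between -0.20 and 0.59.

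Auxiliary subunits held the called member. Kcnip3 had signals of 626 and 649 on the miR-125a-3p arrays, against 359 and 340 on the miR-neg arrays. The 2 arrays of each group nearly coincided, and the groups were far apart relative to that spread. On the log2 scale relative to the 75th percentile, the level was -0.15 ± 0.01 after the mimic and -1.03 ± 0.04 in the controls (SD, n = 2 each), a rise of 0.87 (SE 0.08, adjusted p = 0.0478 in limma).

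The second probe of Kcnip3, also above background on all 4 arrays, had signals of 565 and 625 after the mimic, against 324 and 302 in the controls, a change of 0.93. The call lay close to the threshold. With any 1 array left out, the change stayed between 0.85 and 0.90. The lone array of a group then gives no spread of its own, so such a fit cannot test the call. Arrays of both groups shared each of the 2 positions along 1 axis of the slide, and the difference within these positions was 0.89 and 0.86. With that position as a block, 0 of all features passed in limma. The adjusted p of Kcnip3 was then 0.12, and the smallest among the members was 0.108. Along the other axis position and group cannot be told apart.

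**Figure D3:**
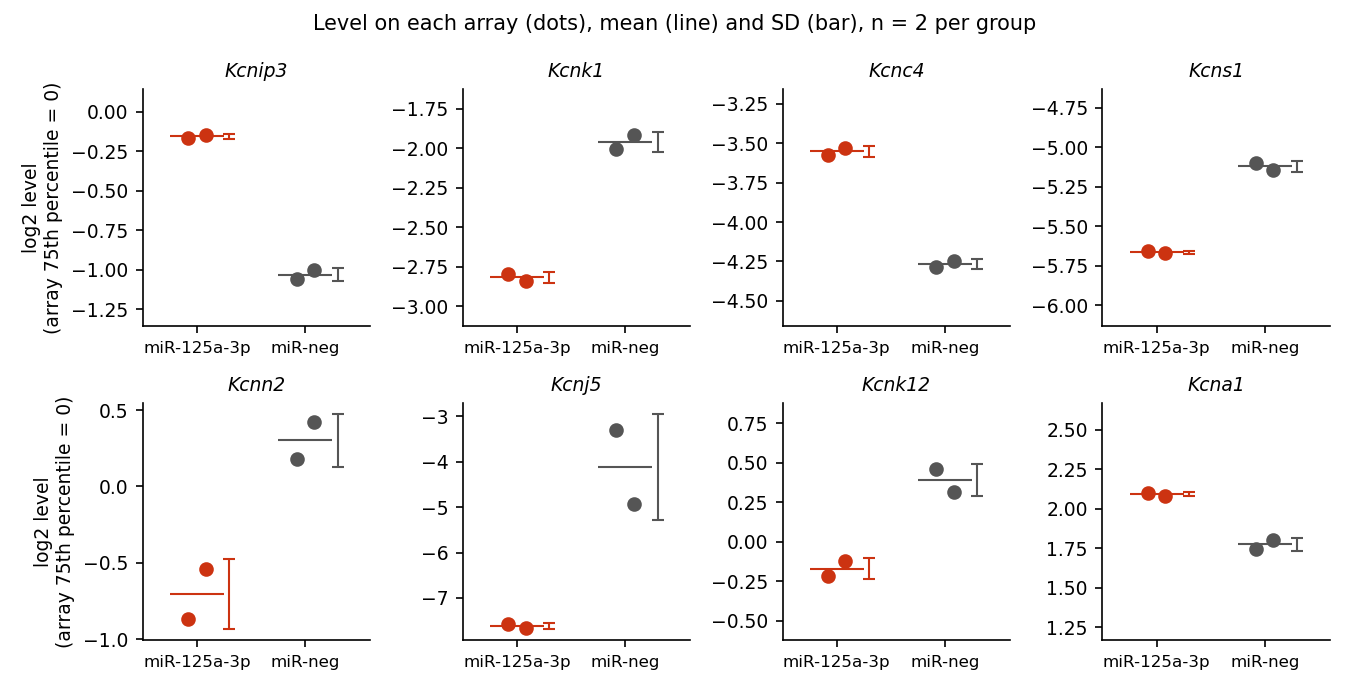
Level on each array (dots), with the group mean (line) and SD (bar), for the 8 members with the smallest p, in log2 relative to each array's 75th percentile. In each panel both miR-125a-3p arrays lie on 1 side of both miR-neg arrays, with Kcnip3, Kcnc4 and Kcna1 higher, and Kcnk1, Kcns1, Kcnn2, Kcnj5 and Kcnk12 lower, after the mimic. Members were picked by p, so the separation is no further evidence. Kcns1 and Kcnj5 were kept through the miR-neg arrays alone.

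The other kept Kcnip genes, Kcnip1 and Kcnip2, did not pass. Kcnip2 had 690 and 737 after the mimic, against 833 and 772 in the controls (-0.16, SE 0.08, adjusted p = 0.346), and Kcnip1 changed by -0.16 at 1 probe and 0.15 at another. All 3 cytoplasmic beta subunits, Kcnab1 to Kcnab3, lay above 0, at 0.20 to 0.34, and 0 of them passed. Kcnab2 had 50.6 and 56.0 after the mimic, against 43.0 and 41.6 in the controls, without overlap (0.34, SE 0.09, adjusted p = 0.174). Kcne5, a single-pass subunit, and Kcnrg, a regulator that interferes with assembly of voltage-gated channels in human cells, were dim. Kcne5 had 22.5 and 23.3 after the mimic, against 20.8 and 17.3 in the controls, and Kcnrg had 29.1 and 31.3 after the mimic, against 26.9 and 24.9 in the controls. Their changes of 0.28 and 0.23 were 0.03 and 0.02 with normexp, and the second kept probe of Kcne5, well above background on the miR-125a-3p arrays alone, changed by 1.01. The family's 9 members had a median of 0.23, with 6 above 0, where 53% of all features lay above 0.

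Inward rectifiers had 0 of 7 members past the threshold in limma. An unadjusted p under 0.05 was found for 2 of the 6 that were well above background in both groups, Kcnj10 and Kcnj9. This was 33.3%, against 19.6% of all features, a share that again was not limited to those detected in both groups. The 7 had a median of -0.14 with 5 below 0, Kcnj5 among them, where 47% of all features lay below 0. The median of the 6 was also -0.14. Kcnj10, the channel by which glia take up potassium, had signals of 151 and 135 after the mimic, against 198 and 176 in the controls. Both treated arrays were lower (-0.38, SE 0.10, adjusted p = 0.173, and -0.26 with normexp). Oligodendrocyte lineage cells and astrocytes both express this gene. In the same cultures the 8 mature oligodendrocyte markers lay below 0 and the 8 astrocyte markers above 0, and their part in the result was not tested.

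Kcnj3, Kcnj5 and Kcnj9 encode subunits of the channels that G proteins open. Kcnj5 showed the widest gap of all members, with 3.71 and 3.52 after the mimic, where neither array was well above background, against 76.1 and 22.2 in the controls. The control arrays themselves lay far apart, and miR-neg replicate 1 held the high value. For a bound, each miR-125a-3p signal was raised to the lowest signal well above background on its array. At this probe, the processed signal was then 4.73-fold lower after the mimic, and 2.67-fold lower without miR-neg replicate 1. Probes not well above background can exceed that floor, as Kcns1 did with 13.9 and 14.1 after the mimic. These folds are therefore no strict limit. The probe was kept through the miR-neg arrays, so the bound is a description and no test. The fitted change of -3.50 (SE 0.58, adjusted p = 0.095) was -0.66 with normexp. A second probe of the same accession, well above background on 0 arrays, had 16.2 and 10.02 after the mimic, against 12.4 and 14.5 in the controls, with overlap (-0.06), so the gap rests on 1 probe.

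Kcnj9 had 29.6 and 32.5 after the mimic, against 37.4 and 37.0 in the controls (-0.26, SE 0.09, adjusted p = 0.253, and -0.09 with normexp). Kcnj3 lay on the other side of 0, with 179 and 149 after the mimic, against 140 and 128 in the controls (0.29, SE 0.13, adjusted p = 0.322). The remaining 3, Kcnj11, the pore of the ATP-sensitive channel, and the strong rectifiers Kcnj12 and Kcnj14, lay between -0.14 and 0.06.

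Two-pore channels had 0 of 8 members past the threshold in limma and 2 at an unadjusted p under 0.05 (25%, against 19.6% of all features), both lower. Kcnk1, a weakly rectifying background channel, had signals of 101 and 100 after the mimic, against 186 and 180 in the controls. Arrays of a group agreed closely and the groups were well separated, at 0.552-fold of the control level (log2 -0.86, SE 0.08, adjusted p = 0.0529 in limma). Its second kept probe gave -0.95 but was well above background on the miR-neg arrays alone, and the differences within the shared slide positions were -0.79 and -0.93. Kcnk1 passed with normexp (-0.56, adjusted p = 0.00302), with a variance trend (adjusted p = 0.00398) and in the fit limited to probes detected on all 4 arrays (adjusted p = 0.0233). It did not pass in limma under quantile normalization (adjusted p = 0.0614) or with slide position as a block (adjusted p = 0.124).

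Kcnk12, a halothane-inhibited two-pore subunit that gives little current by itself, had 603 and 659 after the mimic, against 1027 and 848 in the controls (-0.56, SE 0.09, adjusted p = 0.0966). It too passed with normexp (-0.52, adjusted p = 0.0081) and with a variance trend (adjusted p = 0.00579). Under quantile normalization (adjusted p = 0.0972 in limma) and with the position block (adjusted p = 0.183) it did not. Its relative Kcnk13, the background channel of microglia, had 51.9 and 52.4 after the mimic, against 61.8 and 51.8 in the controls, a change of -0.11 at the probe tested, whereas a second probe above background on all 4 arrays changed by 0.67, so no direction can be given.

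The mechanosensitive channels Kcnk2 and Kcnk10 lay at 0.18 and 0.22 and Kcnk5 at 0.21 (SE 0.13, 0.13 and 0.11). Kcnk2 had signals of 156 and 190 after the mimic, against 169 and 138 in the controls, with overlap. The 6 two-pore members with an unadjusted p of 0.05 or more lay between -0.32 and 0.22, and the family's median was 0.04.

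The calcium-activated group had 0 of 8 members past the threshold in limma, with 3 at an unadjusted p under 0.05 (37.5%, against 19.6% of all features), and a median of 0.09. Kcnn2, a small conductance channel gated through calmodulin, had signals of 385 and 493 after the mimic, against 846 and 913 in the controls. Both treated arrays lay below both controls, with a group mean at 0.498-fold of the control level (log2 -1.01, SE 0.16, adjusted p = 0.0896 in limma). The level was -0.71 ± 0.23 after the mimic and 0.30 ± 0.17 in the controls (SD, n = 2 each).

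The other probes of Kcnn2 had 90.5 and 101 after the mimic, against 223 and 203 in the controls, and 57.8 and 61.4 after the mimic, against 116 and 116 in the controls. All 3 probes were above background on all 4 arrays and changed by -1.01, -1.15 and -0.96. Kcnn2 passed with normexp (-0.92, adjusted p = 0.00234), with a variance trend (adjusted p = 0.00176) and in the fit limited to probes detected on all 4 arrays (adjusted p = 0.0468). It did not pass in limma under quantile normalization (adjusted p = 0.094) or with slide position as a block (adjusted p = 0.108). Within the shared slide positions its differences were -1.05 and -0.97.

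The other small conductance subunits did not pass either. Kcnn3 had 109 and 100 after the mimic, against 93.6 and 77.7 in the controls (0.30, SE 0.10, adjusted p = 0.241, and 0.13 with normexp), and Kcnn1 overlapped between groups (-0.20, SE 0.27). The intermediate conductance channel Kcnn4, known from microglia, had 28.1 and 37.5 after the mimic, against 29.1 and 29.7 in the controls, with overlap (0.15, SE 0.16, adjusted p = 0.671).

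For the large conductance channel, the pore gene Kcnma1 had 130 and 123 after the mimic, against 144 and 108 in the controls, and did not separate (0.03, SE 0.13, adjusted p = 0.928). Its neural beta subunit Kcnmb4 had 6539 and 6491 after the mimic, against 7845 and 7662 in the controls, both treated arrays lower (-0.25, SE 0.08, adjusted p = 0.232). Kcnmb2 had 24.2 and 127 after the mimic, against 33.4 and 27.1 in the controls, so that miR-125a-3p replicate 2 alone gave the change of 0.89 (SE 0.83), and without that array the change was -0.29. The sodium-activated Kcnt1 had 405 and 322 after the mimic, against 279 and 286 in the controls (0.36, SE 0.16, adjusted p = 0.318), and its second kept probe changed by 0.21.

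**Figure D4:**
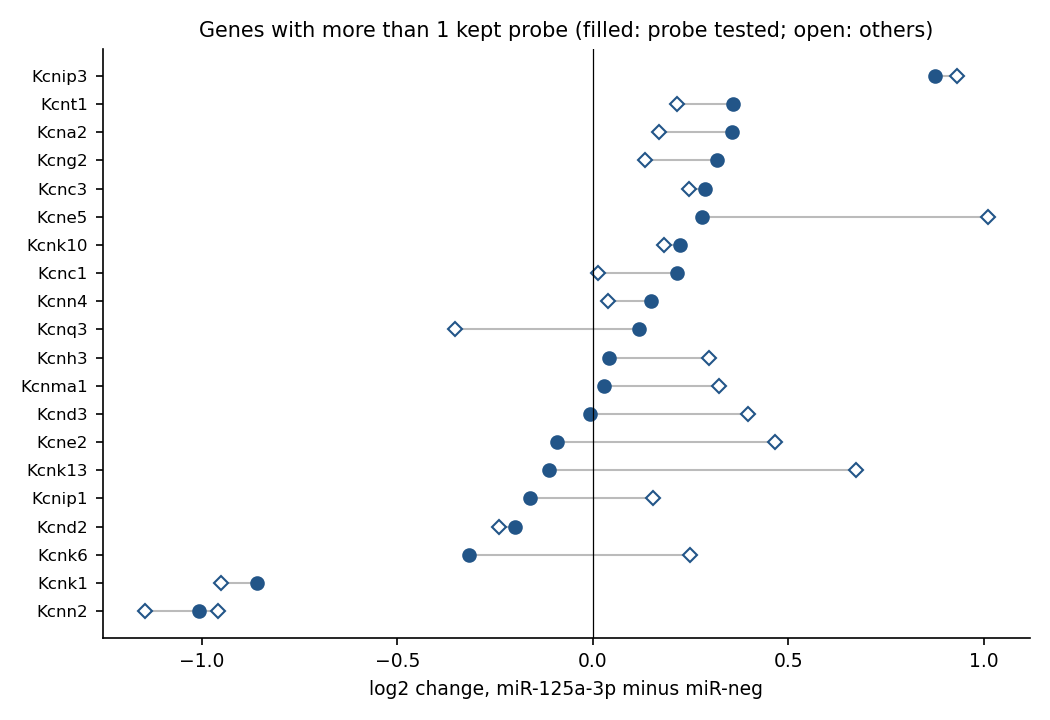
Log2 change, miR-125a-3p minus miR-neg, at every kept probe of the 20 genes with more than 1 such probe. The probes of Kcnip3 (0.87 and 0.93) and Kcnn2 (-0.96 to -1.15) lie close together, whereas those of Kcnk13 and Kcne2 lie on both sides of 0.

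Agreement between probes differed among members. Of 18 genes with more than 1 probe well above background in both groups, 12 had all of them on 1 side of 0 and 6 did not, namely Kcnd3, Kcne2, Kcnip1, Kcnk13, Kcnk6 and Kcnq3. The spread between probes was 0.06 for Kcnip3 and 0.19 for Kcnn2, against 0.79 for Kcnk13. Kcnk1 and Kcne5 are left out of this count, since their second probes were kept through detection in 1 group. Probes of 1 gene share their samples and arrays, so they check the probe and not the sample.

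**Figure D5:**
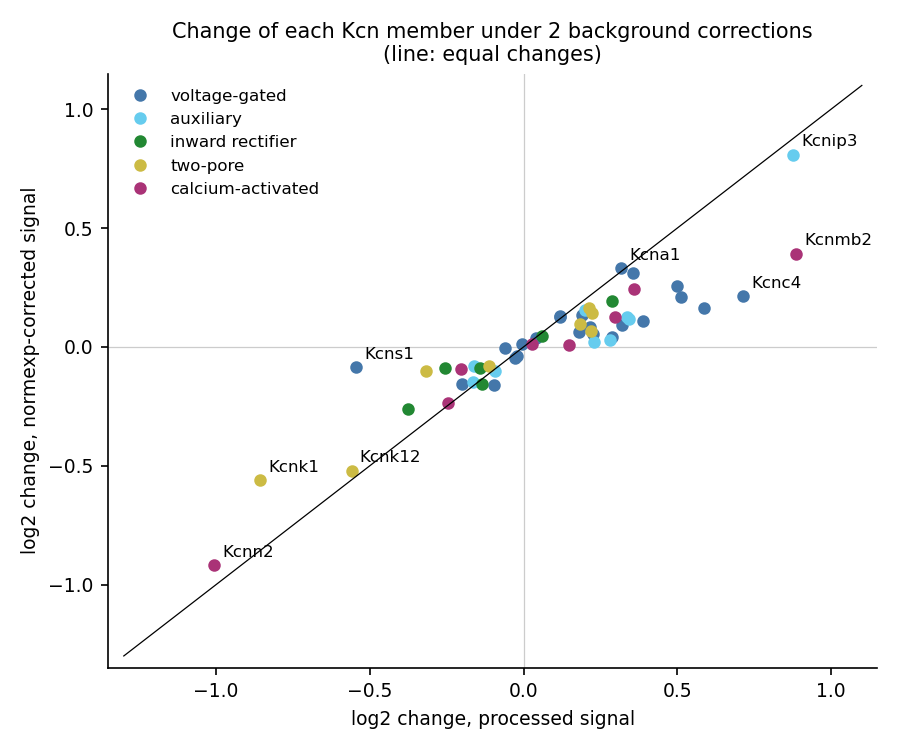
Log2 change of 54 of the 55 members from the processed signal (horizontal axis) and from the normexp-corrected signal (vertical axis), with the line of equal changes. Kcnip3, Kcnn2, Kcnk12 and Kcna1 lie near the line, while Kcnc4, Kcns1 and Kcnmb2 lie nearer 0, and Kcnj5 is off both axes.

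The normexp setting added an offset of 50 to the signals, which by itself shrinks the log2 changes of dim probes. Smaller changes with normexp therefore cannot show whether dim members depended on how background was removed. With normexp, the change of 30 of the 55 members was over 1.5 times smaller in size, a share not counted over all features. Over all features, changes over 0.5 in size made up 2.74% with normexp, against 9.6% without it. Among the 52 members well above background in both groups, Kcna1, Kcnip3, Kcnk1, Kcnk12 and Kcnn2 passed with normexp (9.62%, against 6.93% of all features there). The same 5 passed with a variance trend (9.62%, against 8.8%). Kcnj5, kept through the miR-neg arrays, passed in both as well and is not counted here. The shares over all features still include features kept through detection in 1 group.

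Genes outside the Kcn names that assemble with, anchor or work beside these channels were listed too. Of 41 such genes 32 were tested, 21 lay above 0 with a median of 0.09, and 0 passed in limma, with 11 at an unadjusted p under 0.05 (34.4%, against 19.6% of all features) and 4 passing with normexp (12.5%, against 6.93%). Small p-values belonged to Lgi3 (-0.82), a secreted protein that binds the receptors which anchor Kcna channels, the astrocyte water channel Aqp4 (1.53), which is also on the astrocyte marker list, and the hyperpolarisation-activated channel Hcn4 (0.49). In log2 level, Lgi3 stood at 2.92 and 2.99 after the mimic, against 3.80 and 3.76 in the controls, without overlap (adjusted p = 0.0525).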

How the data were processed

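Expression was measured on 4 Agilent arrays, 1 per sample. Per the file headers, the deposited intensity values had been corrected for background and spatial trend inside each array. The software was Agilent Feature Extraction, version 10.7.3.1 in the submitters' processing notes. The authors' value table is in log2, and 100% of its probes differed from the logged scanner intensity by 1 constant per array, to within 0.01. Its medians were -4.07 and -4.13 for miR-125a-3p and -4.06 and -4.13 for miR-neg, and its 75th percentiles lay near 0. The array number limits the precision. Array 75th percentiles lay at signals of 679 to 745, and 0 spots were saturated.

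From the intensities, control spots and flagged spots were left out, which removed 65 of 45598 probes, repeat spots of a probe were averaged in log2, and values were expressed relative to the 75th percentile of their own array. RefSeq accessions named 21109 probes through a table of the GRCr8 assembly, and unnamed probes were fitted too. Kcn genes were taken by that symbol, since the files hold no gene name column. The filter of 2 arrays well above background passed 27250 probes, and the brightest per gene left 23155 features. The test between groups was limma's moderated one (version 3.58.1, R 4.3.3), two-sided. The threshold was 0.05 for p adjusted by Benjamini-Hochberg across every feature in the fit, which was checked on simulated data. The planned slide-position block is the same as the replicate block. Normexp (offset 50) used median spot signals, as the files hold no mean spot signals. It was chosen after seeing the files.

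Named in the text are members past the threshold, up to 4 per family by smallest p, members above background in 1 group only, members just inside or outside the filter, and channels known from glia. Kcnmb2 and other members named outside this rule were chosen after their values were seen. Counts without members or probes kept through detection in 1 group were added after seeing the data. Some genes that the rule names are not reported here. The members and lists were chosen with earlier results of these data known. All 4 arrays came from 1 slide and 1 scan.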

Additional observations from a re-analysis of the deposited data

How the results depend on the processing

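Across all features 159 passed (88 higher, 71 lower). Normexp gave 1604 (777, 827), a variance trend 2037 (1021, 1016), the threshold of 0.1 gave 991 (521, 470), detection on all 4 arrays 601 (281, 320), and quantile normalization 83 (37, 46). The number was 0 without a filter on dim probes (3963 features at an unadjusted p under 0.05 in limma), 0 with the replicate number as a block (3948 features), and 0 to 0 with 1 array left out (2766 to 4123 features), where a lone array is assumed to vary like the other group. Of the 55 Kcn members 1 passed, which became 7 at the threshold of 0.1, against 991 of the 23155 features. With detection on all 4 arrays the count was 4 of 52 members, against 601 over all features so detected. It became 6 with normexp (10.9%, against 6.93% of all features) and 6 with a variance trend (10.9%, against 8.8%). The 7 include Kcnj5 and Kcns1, and both counts of 6 include Kcnj5. These 2 genes were kept through the miR-neg arrays alone, where they were higher. The number of members was 0 under quantile normalization, median centring, the mean of probes, no filter and the replicate block, where 16, 13, 17, 15 and 14 of them had an unadjusted limma p under 0.05, and 0 to 0 with 1 array left out (10 to 14 such members). Over all features, an unadjusted limma p under 0.05 was reached by 4602 under quantile normalization, 3845 with median centring and 4486 with the mean of probes. The adjusted p of Kcnip3 was 0.0558 under quantile normalization, 0.0507 with median centring, 0.0503 with the mean of probes and 0.259 without the filter, at changes of 0.86 to 0.90. The count of partner genes, 0 of 32, became 5 with a variance trend (8.8% of all features) and 4 with normexp (6.93% of all features). It was 4 at the threshold of 0.1, 3 with detection on all 4 arrays and 1 with median centring. The median change of the members, 0.15, ranged from -0.000491 to 0.14 with 1 array left out and was -0.03 without the filter, which admits 91 Kcn genes. Over 14 settings, 35 of the 55 members kept their sign wherever they were measured, and 20 changed it in at least 1. Deviations of arrays with the same replicate number correlated at 0.0505, a value that 2 arrays per group cannot turn into evidence of pairing. The cause was not tested.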
